A study of Homo sapiens with 14 samples.

Results

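The 10 genes described here belong to the Hippo pathway and to the transcription programme it controls: CTGF, CYR61, ANKRD1, YAP1, WWTR1, TEAD1, AMOTL1, AMOTL2, LATS1 and LATS2. They were taken by gene name from the authors' deposited comparison tables, where all 10 are listed in each table, out of 12202 genes listed in either. The cells were teloHAEC, a telomerase-immortalised line of endothelial cells from the human aorta. In the siRNA comparison, siRNA against CALCRL had been reverse transfected for 4 libraries and scrambled siRNA for 4 control libraries, and the cells were lysed after 24 hours. In the deletion comparison, 3 libraries came from cells electroporated with Cas9 and guides flanking an enhancer of CALCRL, and 3 came from cells given Cas9 with a control guide against HPRT; RNA was taken after 2 days. Cas9 was thus present in both groups of the deletion comparison, and the labels state neither a cloning step nor the share of edited alleles.

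In the Hippo pathway, the kinases LATS1 and LATS2 phosphorylate the coactivators YAP (gene YAP1) and TAZ (gene WWTR1), which are then held in the cytoplasm or degraded. Unphosphorylated YAP and TAZ enter the nucleus, where they bind TEAD transcription factors and switch on genes such as CTGF, CYR61 and ANKRD1. In endothelial cells this system answers to flow, stretch, cell contacts and G protein-coupled receptors, and it takes part in vessel growth. CALCRL encodes such a receptor, the calcitonin receptor-like receptor, which raises cAMP; cAMP is known in other settings to act on LATS kinases through protein kinase A.

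The tables hold, for each gene, a mean normalised count over the libraries of the comparison, a log2 fold change of treated over control, its standard error (SE) and p-values before and after adjustment, but nothing for single libraries. Levels of single samples, the overlap of groups and the depth of each library therefore cannot be given. Whether the libraries of a group came from separate cultures is not stated, so the p-values measure only the spread between these libraries. Group means quoted below were derived from the deposited mean and fold change, and intervals at 95% from the deposited SE. A gene was called where the adjusted p-value of the authors' DESeq2 Wald test was under 0.05. CALCRL, the target, was at 34.0% of control under siRNA (interval 27.1% to 42.7%) and at 36.2% after the deletion (20.2% to 64.7%). Of 12 endothelial markers, 11 were listed in each table. Markers of smooth muscle were listed for 3 of 6 genes, those of fibroblasts for 0 of 6 and those of leukocytes for 1 of 6.

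After the enhancer deletion, 5 of the 10 genes were called, all of them lower: CYR61, CTGF, LATS1, WWTR1 and LATS2. Over all 11830 genes tested in that comparison, 8.44% were called lower. No gene of the 10 was called higher, where 7.40% of all genes were. Among genes that average 30 normalised counts or more, as all 10 do, the share called lower was 9.64%. The median log2 fold change of the 10 genes in the authors' deposited table was -0.59, against 0.00 over all genes. Under CALCRL siRNA, 1 of the 10 was called, CTGF, which was lower; 2.42% of 11261 genes were called lower, and 2.88% of those averaging 30 counts or more. For siRNA, the 10 genes had a median of -0.18 in the authors' deposited table, against 0.00 over all genes, and 9 of the 10 values were below 0, as were 49.4% of all genes. After the deletion 9 of the 10 were also below 0, against 49.7% of all genes. An unadjusted p-value under 0.05 was reached by 4 of the 10 under siRNA, CTGF, ANKRD1, AMOTL2 and LATS2, all at values below 0, where 6.90% of all genes did so in that direction.

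**Figure D1:**
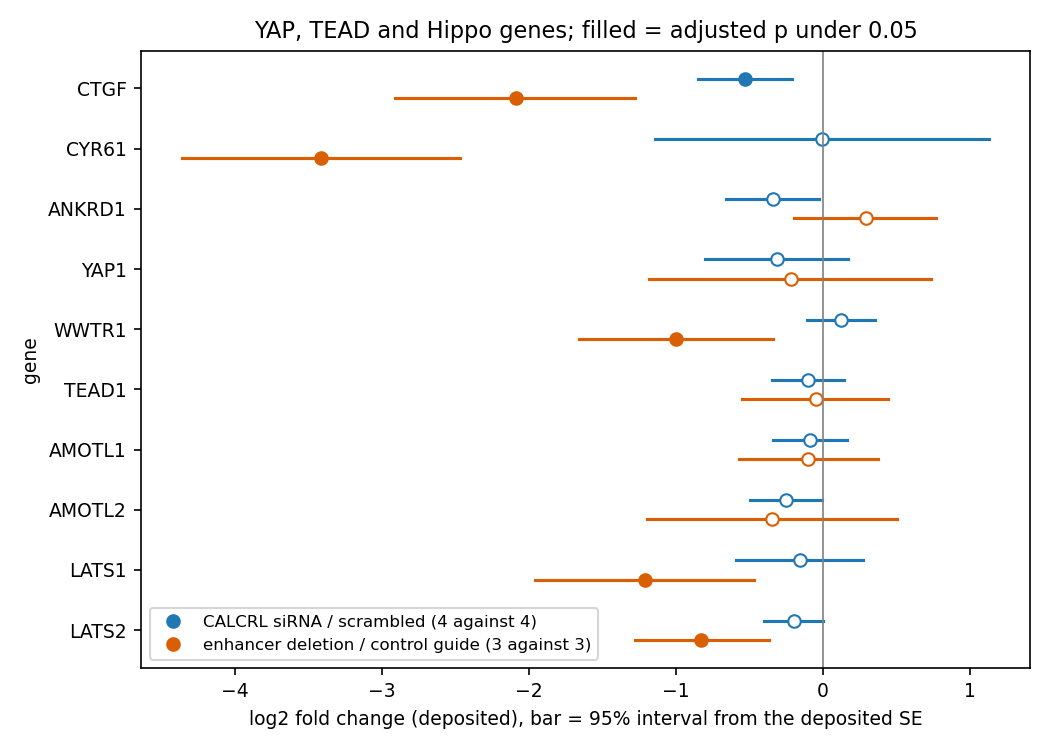
Log2 fold change of the 10 genes (horizontal axis) in the siRNA comparison (blue) and the deletion comparison (orange); bars are 95% intervals from the deposited SE and filled points have an adjusted p-value under 0.05. CTGF, CYR61, WWTR1, LATS1 and LATS2 are filled at the left in orange, and CTGF alone is filled in blue.

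These calls depend on how the error is modelled. The Wald statistics of the deletion table had a robust SD of 1.88 over all genes, against 1.11 for siRNA, where 1 is the value of the reference distribution. With the statistics divided by that SD, or with a Student t reference of 4 degrees of freedom for the deletion and 6 for siRNA, 0 of the 10 genes were called in either comparison; at an unadjusted p-value under 0.05 there were then 2 and 5 for the deletion, and 1 and 1 for siRNA. The share of all genes at that unadjusted threshold is not given for these settings, so those counts are no result about the 10 genes. Over all genes, 0 were called after the deletion under either setting, and 262 (divided by the SD) and 5 (Student t) under siRNA, against 1874 and 390 as deposited. The target CALCRL was thus lost after the deletion under both settings. It was lost under siRNA with the Student t reference too, as its Wald statistic ranked 7 from the lowest and only 5 genes passed. A setting that calls 0 of all genes, or loses the target, shows nothing particular to the 10 genes. Division by the SD under siRNA is not such a setting, as 262 of all genes were still called. CTGF was lost there, at an adjusted p-value of 0.101 from the divided DESeq2 statistic.

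The targets come first. CTGF (ENSG00000118523, also named CCN2) encodes a secreted matrix-associated growth factor and is located on chromosome 6 (minus strand, 131948176 to 131951373, GRCh38). Its implied mean was 3741 normalised counts in the scrambled group and 2590 under CALCRL siRNA. In the deletion comparison it was 4813 in the control group and 1130 after the deletion. CTGF thus stood at 69.2% of control under siRNA (interval 55.6% to 86.2%) and at 23.5% after the deletion (13.3% to 41.3%). In the authors' deposited tables its log2 fold change was -0.53 (SE 0.16, adjusted p-value 0.0345) for siRNA and -2.09 (SE 0.42, adjusted p-value 6.41e-05) for the deletion. CTGF was the only one of the 10 called lower in both comparisons; 0.174% of the 10891 genes tested in both tables were (19 genes). Over the 6 alternatives its adjusted p-value ranged from 0.0289 to 0.561 for siRNA and from 3.66e-05 to 0.935 for the deletion.

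**Figure D2:**
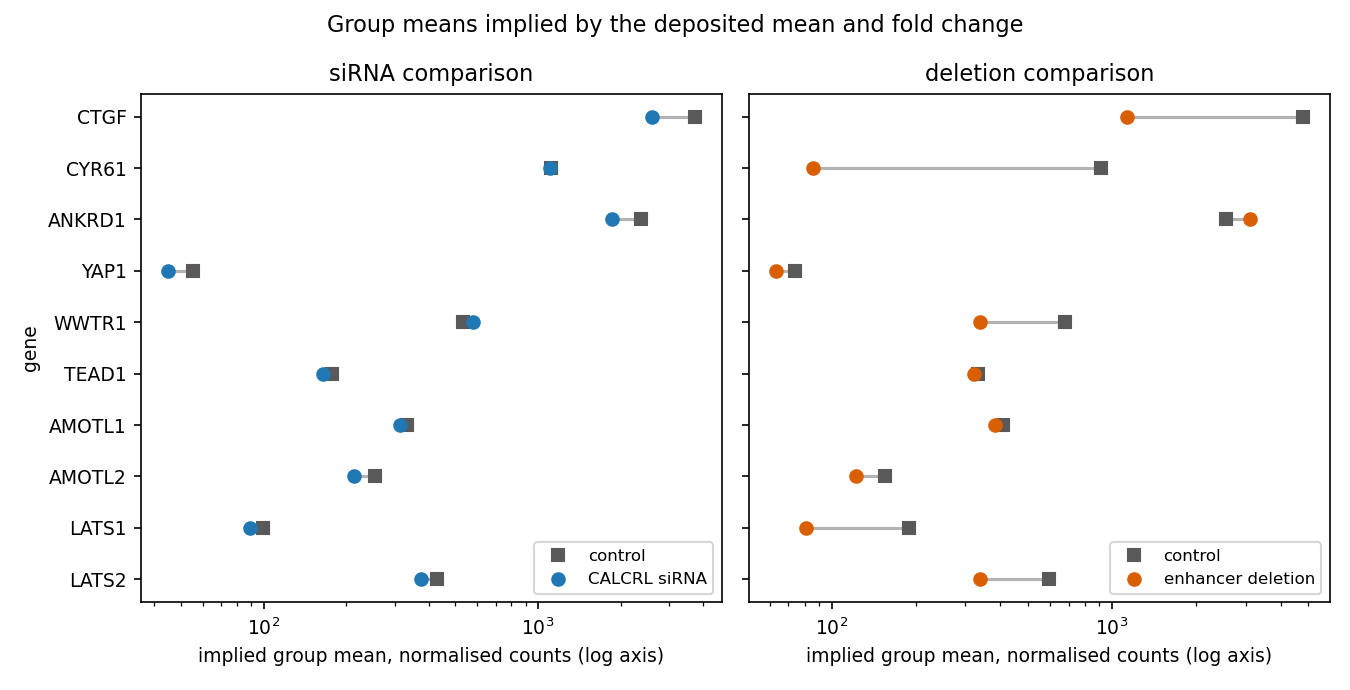
Implied group means in normalised counts (log axis) for the 10 genes, with the control group as squares and the treated group as circles, for siRNA (left) and deletion (right). In the right panel CYR61 moves from 911 to 85.5 and CTGF from 4813 to 1130, while the squares and circles of TEAD1 and AMOTL1 lie close together.

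The DNA in front of CTGF, the gene called in both comparisons, is shown here beside that of ANKRD1, a target called in neither, since both are known to be switched on through TEAD sites. RefSeq windows from 250 bases before to 50 bases after a gene's start (GRCh38.p14) were matched for 8 of the 10 genes; CYR61 and TEAD1 had no entry. The word searched was CATTCC, the core of the TEAD binding site, on both strands (GGAATG on the other). Each sequence below runs 5′ to 3′ along the gene's strand over the 250 bases before the start, with the word in capitals. The CTGF sequence is the minus strand of chr6:131951373-131951622, and that of ANKRD1 the minus strand of chr10:90921088-90921337. The RefSeq start of ANKRD1 lies inside the GENCODE gene, so 189 of its 250 bases fall within the gene position given below.
CTGF: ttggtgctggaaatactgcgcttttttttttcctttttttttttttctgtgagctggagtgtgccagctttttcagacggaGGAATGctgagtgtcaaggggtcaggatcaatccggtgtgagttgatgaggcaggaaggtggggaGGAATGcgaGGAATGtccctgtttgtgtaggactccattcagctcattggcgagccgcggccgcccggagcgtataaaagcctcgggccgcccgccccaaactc
ANKRD1: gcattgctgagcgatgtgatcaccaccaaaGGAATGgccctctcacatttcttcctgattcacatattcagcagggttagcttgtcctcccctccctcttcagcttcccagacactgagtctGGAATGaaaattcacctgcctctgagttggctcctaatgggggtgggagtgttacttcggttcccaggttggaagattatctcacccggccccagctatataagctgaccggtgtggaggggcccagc
CTGF held the word at 3 places, starting at -169, -104 and -95 from the gene's start, and ANKRD1 at 2, -220 and -128. At least 3 copies were found in 0.128% of 35116 windows of the same length, at least 2 in 1.37% and at least 1 in 14%. YAP1 held 1 copy at -162, LATS2 1 copy at 10 and AMOTL2 1 copy at -69 in the second of its windows. WWTR1, AMOTL1 and LATS1 held none in these windows. All 250 bases fell within the GENCODE gene for the windows of WWTR1 and AMOTL1, a LATS1 window and the AMOTL2 window with the word. Those windows therefore do not describe the DNA in front of the whole GENCODE gene. A word for AP-1 factors, which often sit beside TEAD, was searched as TGANTCA, where N is any base. It was found in 7.71% of the windows, but is wider than the usual AP-1 site, which has C or G at N. Among the 8 genes it was found for ANKRD1, at -195, and for LATS1, at -245. The letters there read TGATTCA and TGAATCA, so neither match is the usual AP-1 site. A match describes these letters only, and binding was not measured.

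CTGF also differs from the other 9 genes in its transcript. Its 3′ UTR holds the word GTAACAA, which had been picked from these same data for its frequency among genes lower under CALCRL siRNA, so its share is a description and not a test. In GENCODE release 29 the word was present in 10.7% of the 10650 genes of the siRNA table with a 3′ UTR and in 56.4% of the genes called lower under siRNA. It starts at base 565 of the 1091 bases of the CTGF 3′ UTR, and is shown here in capitals with 10 bases on each side.
CTGF: gaatttgcctGTAACAAgccagatttt
The part this word has in the CTGF value under siRNA was not tested.

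CYR61 (ENSG00000142871, also named CCN1) encodes a secreted protein of the same family as CTGF and lies on the plus strand of chromosome 1, from 85580761 to 85583962. After the deletion its implied mean was 85.5 normalised counts, against 911 in the control group. That is 9.38% of control (interval 4.86% to 18.1%), and only 3 of the 11830 genes tested had a lower Wald statistic. The authors' deposited table for the deletion gives it a log2 fold change of -3.41 (SE 0.48, adjusted p-value 5.16e-09), with a range of the adjusted p-value over the alternatives from 2.55e-09 to 0.470. Under siRNA the implied means were 1113 in the scrambled group and 1107 in the treated group. The interval of the siRNA value ran from 45.3% to 218% of control, so that changes of that size in either direction were not detectable.

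The width of that interval comes from the SE and not from a low count. The SE of CYR61 in the authors' deposited table for siRNA was 0.58, which is 5.68 times the SE typical of its mean count and ranks 4 among 11261 genes. It corresponds to a coefficient of variation of 56.7% between libraries of 1 group, against 15.8% for CTGF and 11.6% for WWTR1. The SE of CTGF under siRNA was itself 1.64 times the typical one. After the deletion the ratios were 1.82 for CTGF and 1.78 for CYR61, which rank 137 and 150 among 11835 genes. CYR61 is the only one of the 10 genes with a ratio over 2 in the siRNA table, where 219 genes (1.94%) have one. Of the 214 such genes tested in both tables, 67.3% were called lower after the deletion, against 7.75% of the other 10677 genes. The part of that pattern in the fall of CYR61 was not tested, and without values per library it cannot be given without any 1 library.

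**Figure D3:**
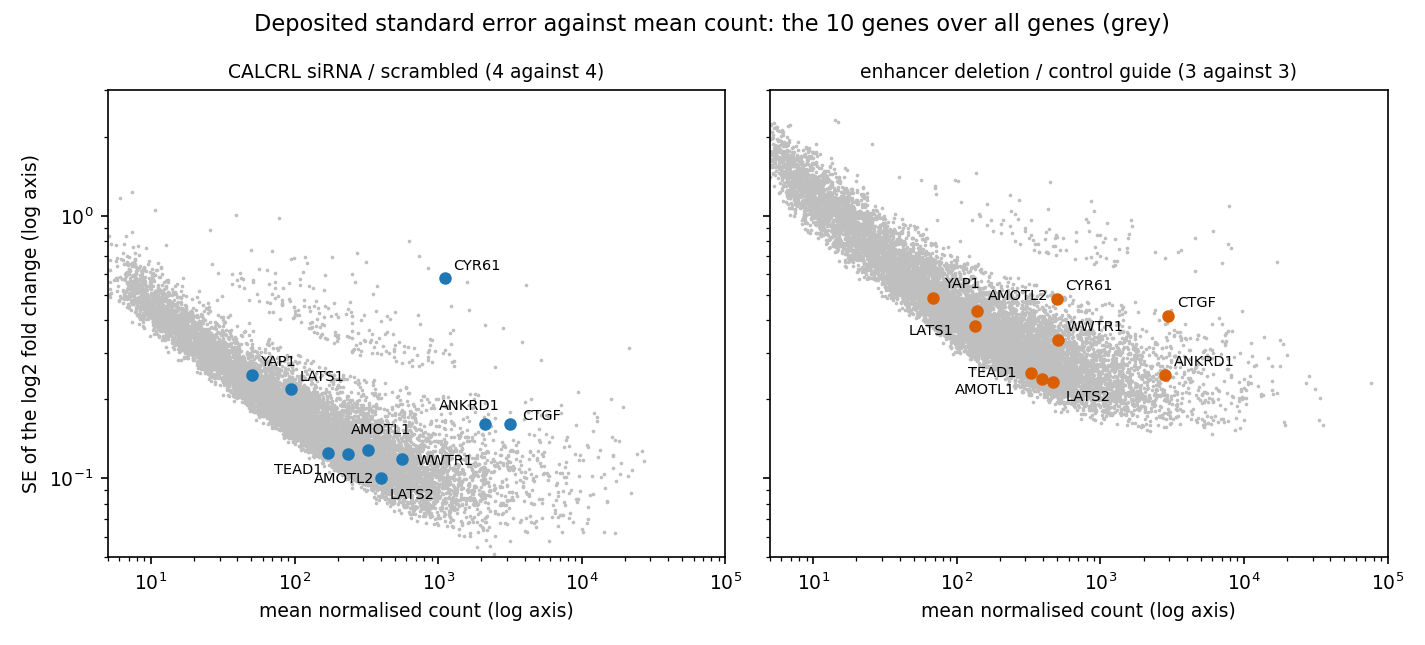
SE of the log2 fold change against the mean normalised count (both log axes) for all genes (grey) and the 10 genes (coloured), in the siRNA table (left) and the deletion table (right). CYR61 stands far above the grey band at the left, at an SE of 0.58, while the other 9 genes at the left lie at SEs from 0.10 to 0.25.

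ANKRD1 (ENSG00000148677), an ankyrin repeat protein of nucleus and sarcomere, was not called in either comparison. Its position is chromosome 10, minus strand, 90912096 to 90921276. Its implied means were 2364 normalised counts in the scrambled group and 1862 under siRNA, which is 78.8% of control (interval 63.3% to 98.0%). In the deletion comparison they were 2546 in the control group and 3107 after the deletion, which is 122% (87.1% to 171%). In the authors' deposited tables the log2 fold change was -0.34 (SE 0.16, adjusted p-value 0.327) for siRNA and 0.29 (SE 0.25, adjusted p-value 0.459) for the deletion. ANKRD1 thus lay on the other side of 0 from CTGF and CYR61 after the deletion. Its interval from the deposited SE reached down to 87.1% of control. It would reach lower with that SE widened by the robust SD of 1.88, so 87.1% is not a firm bound.

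The coactivators and TEAD1 follow. WWTR1 (ENSG00000018408), the gene of TAZ on chromosome 3 from 149517235 to 149736714, had an implied mean of 678 normalised counts in the control group and 339 after the deletion. This is 50% of control (interval 31.6% to 79.2%), and the authors' deposited table gives a log2 fold change of -1.0 (SE 0.34, adjusted p-value 0.0277). Under siRNA WWTR1 was at 109% of control (92.6% to 128%), with implied means of 532 and 578.

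YAP1 (ENSG00000137693), the gene of YAP, was counted at a mean of only 50.1 normalised counts for siRNA and 68.4 for the deletion. Its values were 80.5% of control under siRNA (interval 57.4% to 113%) and 85.6% after the deletion (44.2% to 166%), and it was not called in either comparison. The 50% measured for WWTR1 lies inside the YAP1 interval for the deletion, so these data do not show whether the coactivator genes differ. TEAD1 (ENSG00000187079), the DNA-binding partner, was more closely bounded: 93.1% of control under siRNA (78.7% to 110%) and 96.5% after the deletion (68.5% to 136%).

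The angiomotin-like genes encode junction proteins that bind YAP and keep it out of the nucleus, and AMOTL2 is also a YAP target. AMOTL1 (ENSG00000166025) was at 94.0% of control under siRNA (interval 79.0% to 112%) and at 93.4% after the deletion (67.5% to 129%). AMOTL2 (ENSG00000114019) was at 83.9% (70.9% to 99.3%) and 78.6% (43.5% to 142%). The authors' deposited table for siRNA gives AMOTL2 an adjusted p-value of 0.378, and 0.634 stands in that for the deletion. Neither gene was called.

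The kinase genes LATS1 and LATS2 were both lower after the deletion. LATS1 (ENSG00000131023, chromosome 6 from 149658153 to 149718256) fell from an implied 188 normalised counts to 81.0, or 43.2% of control (interval 25.8% to 72.3%). LATS2 (ENSG00000150457, chromosome 13 from 20973032 to 21061547), the kinase gene that is itself a YAP target, fell from 598 to 337, or 56.3% of control (41.1% to 77.3%). The authors' deposited table for the deletion gives log2 fold changes of -1.21 (SE 0.38, adjusted p-value 0.0165) for LATS1 and -0.83 (SE 0.23, adjusted p-value 0.00700) for LATS2. Under siRNA LATS1 was at 89.4% of control (66.4% to 120%) and LATS2 at 87.0% (75.9% to 99.8%), neither called.

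GC content moved with the deletion values. In the last 500 bases of their transcripts the 10 genes had a median GC content of 31.9%, against 42.0% over all genes of the deletion table. The 1667 genes within 2 percentage points of that median had a median log2 fold change of -0.20 after the deletion. With the trend of fold change on GC content removed, CYR61 (-3.18) and CTGF (-1.86) stayed past the threshold. WWTR1 (-0.75, adjusted p-value 0.122), LATS1 (-0.88, 0.103) and LATS2 (-0.57, 0.0810) did not. Over all 6 alternatives the adjusted p-values for the deletion ranged from 0.0211 to 0.976 for WWTR1, from 0.0128 to 0.976 for LATS1 and from 0.00420 to 0.976 for LATS2. Of the 11 endothelial markers listed for the deletion, 2 were called, both lower, or 18.2% against 15.8% of all genes, and 5 of the 11 had values above 0. CDH5, the endothelial cadherin, was at -1.44 (SE 0.35) and KDR, the VEGF receptor, at -1.05 (SE 0.31) in the authors' deposited table. Their part in the values of the 10 genes was not tested.

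Whether the treatments differed in their effect was tested for each gene on the difference of the log2 fold changes, siRNA minus deletion, adjusted over the 10891 genes tested in both tables. The comparisons share no libraries. Of the 10 genes, 3 differed, each with the lower value after the deletion: CYR61, CTGF and WWTR1; of all genes, 7.22% differed in that direction and 6.49% in the other. The difference was 3.41 (SE 0.75) for CYR61, 1.56 (SE 0.45) for CTGF and 1.12 (SE 0.36) for WWTR1, with adjusted p-values of 0.000611, 0.00968 and 0.0215. With the GC trend removed, the difference of WWTR1 was 0.91 and lost the threshold (adjusted p-value 0.0760), and 2 of the 10 genes differed. LATS1 (1.05, SE 0.44) and LATS2 (0.63, SE 0.25) did not pass, at adjusted p-values of 0.0865 and 0.0758, nor did ANKRD1 (-0.63, SE 0.30), at 0.133. For the remaining 4 genes the interval of the difference included 0. It ran from -0.52 to 0.54 for AMOTL1, from -0.60 to 0.50 for TEAD1, from -0.79 to 0.98 for AMOTL2 and from -1.16 to 0.98 for YAP1. The treatments differ also in delivery, time and control, which cannot be told apart from the target of the treatment.

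**Figure D4:**
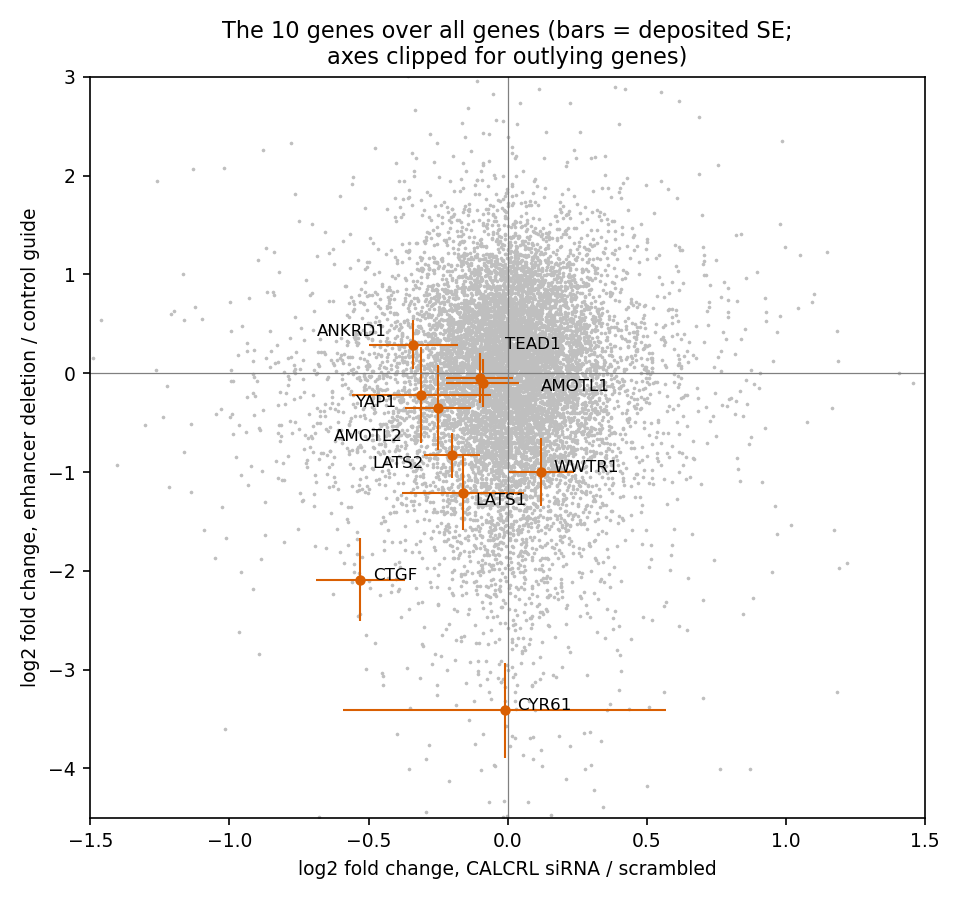
Log2 fold change after the deletion (vertical axis) against that under siRNA (horizontal axis) for the genes tested in both tables (grey) and the 10 genes (orange, bars are 1 SE each way). CTGF lies low on both axes, CYR61 lies low after the deletion with a wide horizontal bar centred near 0, and WWTR1, LATS1 and LATS2 lie below the other 5 genes.

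The wider pathway was followed in 5 lists of 87 other genes. In the deletion comparison 74 of them were tested and 11 were called, 4 higher and 7 lower, which is 14.9% of those tested against 15.8% of all genes. In the siRNA comparison 76 were tested and 3 were called, all lower, which is 3.95% against 3.46%. The median log2 fold change was -0.07 after the deletion and -0.08 under siRNA. These shares lie near those of all genes.

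Among 17 tested genes of the upstream kinase module, 2 were called after the deletion. MOB1A, the scaffold that activates LATS kinases, was at 42.7% of control (log2 fold change -1.23, SE 0.27, in the authors' deposited table). FRMD6, a membrane-bound activator of the pathway, was at 37.2% (-1.43, SE 0.42). No gene of this module was called under siRNA, where 2 had an unadjusted p-value under 0.05 by the DESeq2 test in either direction. Of all genes, 6.90% had such a p-value under siRNA in the lower direction alone. The share in both directions is not given here. MAP4K4, a kinase upstream of LATS and the one with the highest mean count here, was at 145% after the deletion and 121% under siRNA, not called. STK3, STK4, SAV1 and NF2, other genes of this module, were not called either.

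Of 15 tested genes that restrain LATS or belong to the STRIPAK phosphatase complex, 3 were called after the deletion. The LIM proteins AJUBA and WTIP, which bind and inhibit LATS, were at 29.9% and 29.7% of control, with log2 fold changes of -1.74 (SE 0.49) and -1.75 (SE 0.63) in the authors' deposited table. WTIP had a mean of only 34.9 normalised counts there, against 129 for AJUBA. The adjusted DESeq2 p-values were 0.0391 for WTIP and 0.00668 for AJUBA. STRN4, a STRIPAK scaffold, was higher, at 203%. Under siRNA 0 were called, with 2 at an unadjusted p-value under 0.05 by the DESeq2 test in either direction. The 6.90% of all genes is for the lower direction alone and cannot be set against that count. MARK3, the most counted gene of this list, was at 86.5% and 113% for the deletion and siRNA and was not called.

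Of 11 tested polarity and adhesion genes, LLGL1 alone was called, after the deletion. Its implied mean there was under 3 normalised counts against 193 in the control group, so no fold is given, and its SE under siRNA was 3.67 times the typical one. PTPN14, which holds YAP in the cytoplasm, was at 134% after the deletion and 97.5% under siRNA, not called. CTNNA1, the alpha-catenin of adherens junctions, was at 81.5% and 99.3%, also not called. Under siRNA 0 of this list were called. An unadjusted p-value under 0.05 by the DESeq2 test was reached by 3, counted in either direction. Here too the 6.90% of all genes, for the lower direction alone, is no match for that count.

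Among 16 tested partners of YAP and TAZ, TEAD4 was higher after the deletion, at 210% of control (log2 fold change 1.07, SE 0.32, in the authors' deposited table). Its effect differed between the comparisons (siRNA minus deletion -1.38, SE 0.35, adjusted p-value 0.00354). With the GC trend removed TEAD4 lost its call after the deletion. The intervals of TEAD1 included no change, but whether TEAD4 and TEAD1 differ from each other was not tested. YWHAB, a 14-3-3 protein of the family that holds phosphorylated YAP in the cytoplasm, was at 157%. Under siRNA YWHAG, another 14-3-3 gene, was lower at 63.8% (-0.65 in the authors' deposited table, SE 0.07; adjusted p-value 2.56e-15), and its 3′ UTR also holds GTAACAA.

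Of the other YAP and TAZ targets, 15 were tested in the deletion comparison, with 2 called lower and 1 higher. NT5E, an enzyme that makes adenosine, was at 50.4% of control, and DOCK5, an exchange factor for Rac, at 55.3%. AXL, a receptor tyrosine kinase, was higher at 161%. ASAP1, which acts on Arf GTPases, was at 74% after the deletion and 94.5% under siRNA, not called. Under siRNA 17 were tested and 2 were called, THBS1, a matrix glycoprotein, at 70.1% of control and EDN1, the endothelin precursor, at 77.3%; neither 3′ UTR holds GTAACAA.

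**Figure D5:**
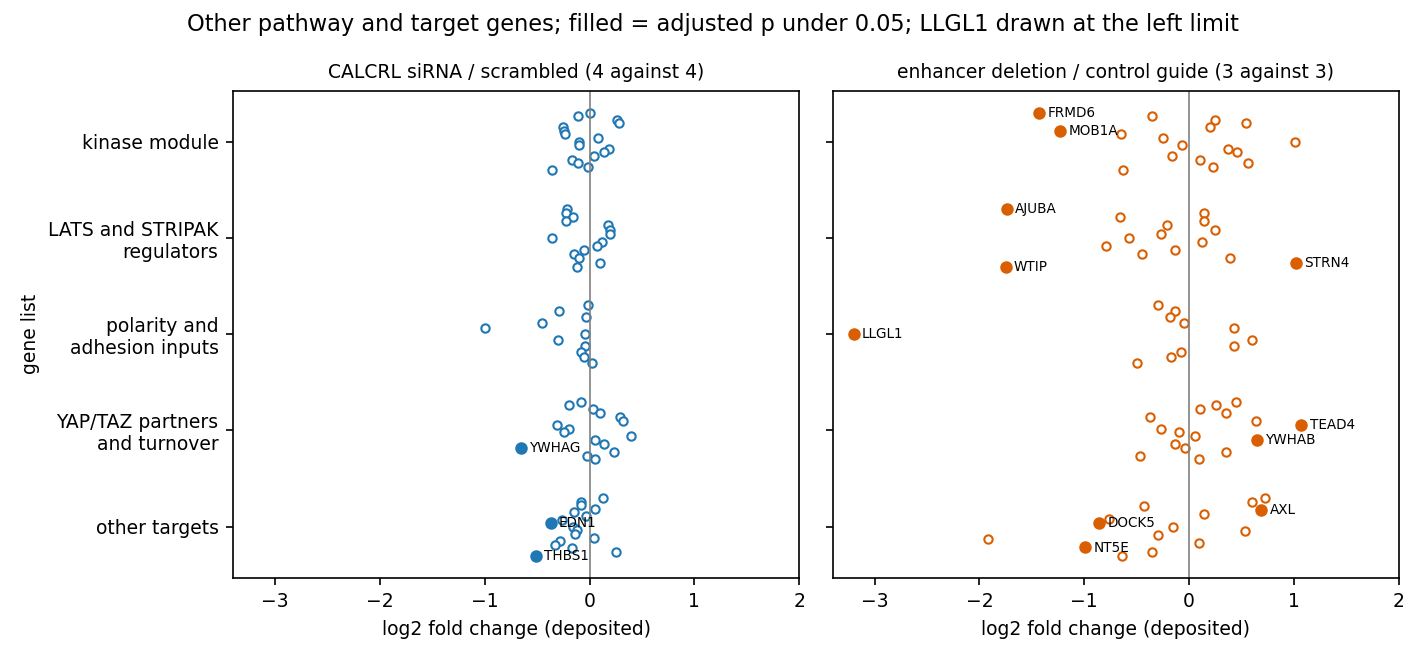
Log2 fold change (horizontal axis) of the tested genes in 5 lists of other pathway genes and targets, for siRNA (left) and deletion (right); filled, named points have an adjusted p-value under 0.05, and LLGL1 is drawn at the axis limit. Filled points lie on both sides of 0 at the right, and 3 lie below 0 at the left.

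With the GC trend removed, 13 of these genes were called after the deletion, 7 higher and 6 lower, where 1440 of all 11630 genes with a GC value were, and 6 of the 11 named above remained: AJUBA, DOCK5, LLGL1, MOB1A, NT5E and YWHAB. AXL, FRMD6, STRN4, TEAD4 and WTIP lost the threshold. With fold changes centred on the median of well counted genes, 12 were called, 2 higher and 10 lower, where 1789 of all genes were called. How those 1789 divide by direction is not given here.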

How the data were processed

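The data were 14 3′ mRNA-seq libraries (QuantSeq FWD, single-end reads of 86 cycles, per the labels' protocols), used as 2 tables of the authors' own comparisons. The authors used featureCounts for counting and DESeq2 for the comparisons, per the file headers and names; the deposited values are mean normalised counts, log2 fold changes with SEs, Wald statistics (a score), p-values and adjusted p-values, written with decimal commas. The submitters' processing notes name hg19 and edgeR 3.24.3, with no role; aligner and annotation are not given in the sources used here, nor whether counting used the strand. All 10 genes except CYR61 and ANKRD1 overlap the span of a noncoding gene in GENCODE 29, on the same or the opposite strand. Overlap of exons was not examined, so whether reads of these genes were mixed is unknown. The depth of single libraries is unknown. Fold changes are treated over control, and the deposited Wald statistic equalled the fold change over its SE.

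Intervals, implied group means (equal group sizes), the ratio of each SE to a lowess trend on the mean count (span 0.3) and the difference between comparisons (normal reference, Benjamini-Hochberg over all genes) were computed with Python 3.11.15, scipy 1.17.1 and statsmodels 0.14.6, and the functions were tested on simulated data. GC content was that of the final 500 bases of each gene's transcript with the largest annotated 3′ UTR, found for 11630 genes (deletion) and 11099 genes (siRNA). Gene positions are from GENCODE 29 (GRCh38); the tables hold no coordinates. Promoter windows are from RefSeq (GRCh38.p14), and CTGF and CYR61 were sought there as CCN2 and CCN1. The genes named are the 10, CALCRL, every called gene of the 5 other lists and the gene with the highest mean count of each list in either table (a target gene of the lists is not reported here); STK3, STK4, SAV1, NF2, CDH5 and KDR were added after their values were seen. The members and lists were chosen with earlier results of these data known. Alternatives were a Student t reference, division of the statistics by their robust SD, removal of the GC trend, centring on the median of genes with at least 100 normalised counts, and adjustment over genes with at least 30 normalised counts or over genes listed in both tables.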

Additional observations from a re-analysis of the deposited data

Results flagged for a closer look

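The effect of the treatments differed between the comparisons, by the test of the difference itself, for 3 of the 10 genes, where 13.7% of all genes differed in either direction. With the lower value after the deletion each time, CYR61 had a difference (siRNA minus deletion) of 3.41 on the log2 scale, CTGF of 1.56 and WWTR1 of 1.12. Their adjusted p-values were 0.000611, 0.00968 and 0.0215, and over the 6 alternatives they ranged from 0.000431 to 0.992, from 0.00757 to 0.992 and from 0.0165 to 0.992. With the GC trend removed, WWTR1 (0.91, adjusted p-value 0.0760) no longer passed. The CYR61 difference carries the wide siRNA error of that gene. Delivery, time after treatment and control differ between the comparisons as well and cannot be told apart from the target.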

How the results depend on the processing

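No paired analysis was possible because neither table gives values per library, and for that reason no replicate could be left out and no other normalisation or count model could be run. With a Student t reference, 0 of the 10 genes were called under siRNA (1 as deposited; 1 at an unadjusted p-value under 0.05), 0 after the deletion (5 as deposited; 5 unadjusted), and 0 differed between the comparisons (3 as computed; 3 unadjusted); of the other pathway genes, 0 were called under siRNA (3 as deposited; 10 unadjusted) and 0 after the deletion (11 as deposited; 10 unadjusted). Over all genes, 5 were called under siRNA, 0 after the deletion and 0 for the difference. With the DESeq2 statistics divided by their robust SD, 0 of the 10 were called under siRNA (1 unadjusted) and 0 after the deletion (2 unadjusted), 0 differed (1 unadjusted), and 0 other genes were called after the deletion (3 unadjusted) and 2 under siRNA, THBS1 and YWHAG, with EDN1 lost; over all genes the counts were 262, 0 and 0. Removing the GC trend left 2 of the 10 called after the deletion (1440 of all genes, against 1874) and 2 that differed (1211, against 1493), and changed the sign of values near 0: CYR61 under siRNA (0.01), YAP1 (0.06) and TEAD1 (0.14) after the deletion, and the difference of AMOTL2 (-0.15). Centring and both other adjustments left every count for the 10 genes as it was. The cause of these changes was not tested. For the unadjusted counts with the Student t reference or the robust SD, the share of all genes is not given here. Those counts are therefore not read as a result about these genes.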
